A study of Mus musculus with 6 samples.

Results

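The genes of MHC class I antigen presentation were examined in mouse breast tumor cells from glands with a deletion of *Mapk8* and *Mapk9*, the genes of the kinases JNK1 and JNK2. The members were 10 genes of the 37753 entries with FPKM values: the heavy chains *H2-K1* and *H2-D1*, the light chain *B2m*, the peptide transporter genes *Tap1* and *Tap2*, *Tapbp*, the immunoproteasome genes *Psmb8*, *Psmb9* and *Psmb10*, and the transactivator *Nlrc5*. They were chosen by name, and for each name the entry with the highest mean was taken. The entry of *Tapbp* is joined with *Zbtb22* and covers both genes. Expression is given as FPKM, fragments scaled by transcript length and by the mapped fragments of a library.

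The libraries are those of 3 primary cultures of mammary epithelial cells (MEC) and of 3 MEKO tumor cell lines, named 199, 233 and 336. The MEC were WAPCre+ on the C57/Bl6J strain. Virgin females aged 10 to 12 weeks gave the glands, 3 to 5 animals to a preparation, and RNA was taken near confluence on collagen I. The MEKO lines are Mapk8KO Mapk9KO Cre+ on the same strain, and each was established from the tumor of a parous mouse. Both groups carry Cre under the *Wap* promoter, which acts in luminal cells in lactation, and the labels of MEC give no other allele. The tumor cells spent 2 passages on collagen I and then moved to uncoated dishes. The study's methods state that females were bred at 10 to 12 weeks and watched for tumors after weaning, so the tumor mice were older. Loss of JNK, tumor origin, parity, animal age, time in culture and growth conditions change together between the groups and cannot be told apart. A MEC preparation pools several animals, whereas a MEKO line stands for a single tumor.

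MHC class I molecules show peptides from inside the cell to CD8+ T cells. The proteasome cuts proteins into peptides, the TAP transporter moves them into the endoplasmic reticulum, and tapasin holds the empty heavy chain and β2-microglobulin there until a peptide binds. Interferon signaling replaces the constitutive catalytic subunits of the proteasome by inducible subunits, and NLRC5 is the transactivator of most genes of this pathway. Loss of the pathway is a known way in which tumor cells avoid T cells.

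The targeted genes were lower in the tumor lines. *Mapk8* fell from 22.5 ± 2.98 to 3.47 ± 2.30 FPKM and *Mapk9* from 22.7 ± 1.53 to 4.61 ± 2.60 FPKM (SD, n = 3). Over all entries the FPKM summed to 557991 to 638365 per library. FPKM carries no read numbers, so the depth of the libraries is unknown and no counting interval is given. The epithelial markers *Epcam*, *Cdh1*, *Krt8* and *Krt18* were present in each of the 6 libraries, although their levels were lower in MEKO. *Elf5*, a marker of luminal progenitors, was at 31.5 to 44.3 FPKM in MEC and at 0 to 0.461 FPKM in MEKO. *Krt19*, another epithelial marker, had 739 ± 355 FPKM in MEC and 17.4 ± 9.44 FPKM in MEKO. The basal keratin *Krt5* was at 201 to 435 FPKM in MEC, at 608 FPKM in line 199 and at 1.33 and 15.3 FPKM in lines 233 and 336. *Krt14* and *Trp63* were likewise above MEC in line 199 and below it in lines 233 and 336.

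All 10 members were lower in every MEKO library than in every MEC library. Such a separation was found in 18.7% of the 12461 genes with a mean of at least 1 FPKM (two-sided exact permutation p = 0.1 for each member, which is the smallest value that this design can reach). The log2 fold changes lay between -2.82 and -0.75, with a median of -1.68 against 0.01 over all tested genes. Fold changes are on the scale of log2(FPKM + 1) and understate the change of weakly expressed genes. A gene was called lower or higher with a limma adjusted p (Benjamini-Hochberg) under 0.05 and a log2 fold change beyond 0.75. By this rule 6 of the 10 members were lower, namely *H2-K1*, *H2-D1*, *Tap2*, *Tapbp*, *Psmb8* and *Psmb9*, against 7.26% of all tested genes. The other 4 members, *B2m*, *Tap1*, *Psmb10* and *Nlrc5*, did not pass the adjusted p. No member was higher, against 2.64% of all tested genes. At an unadjusted limma p under 0.05 all 10 were lower, against 15.7% of all tested genes.

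**Figure D1:**
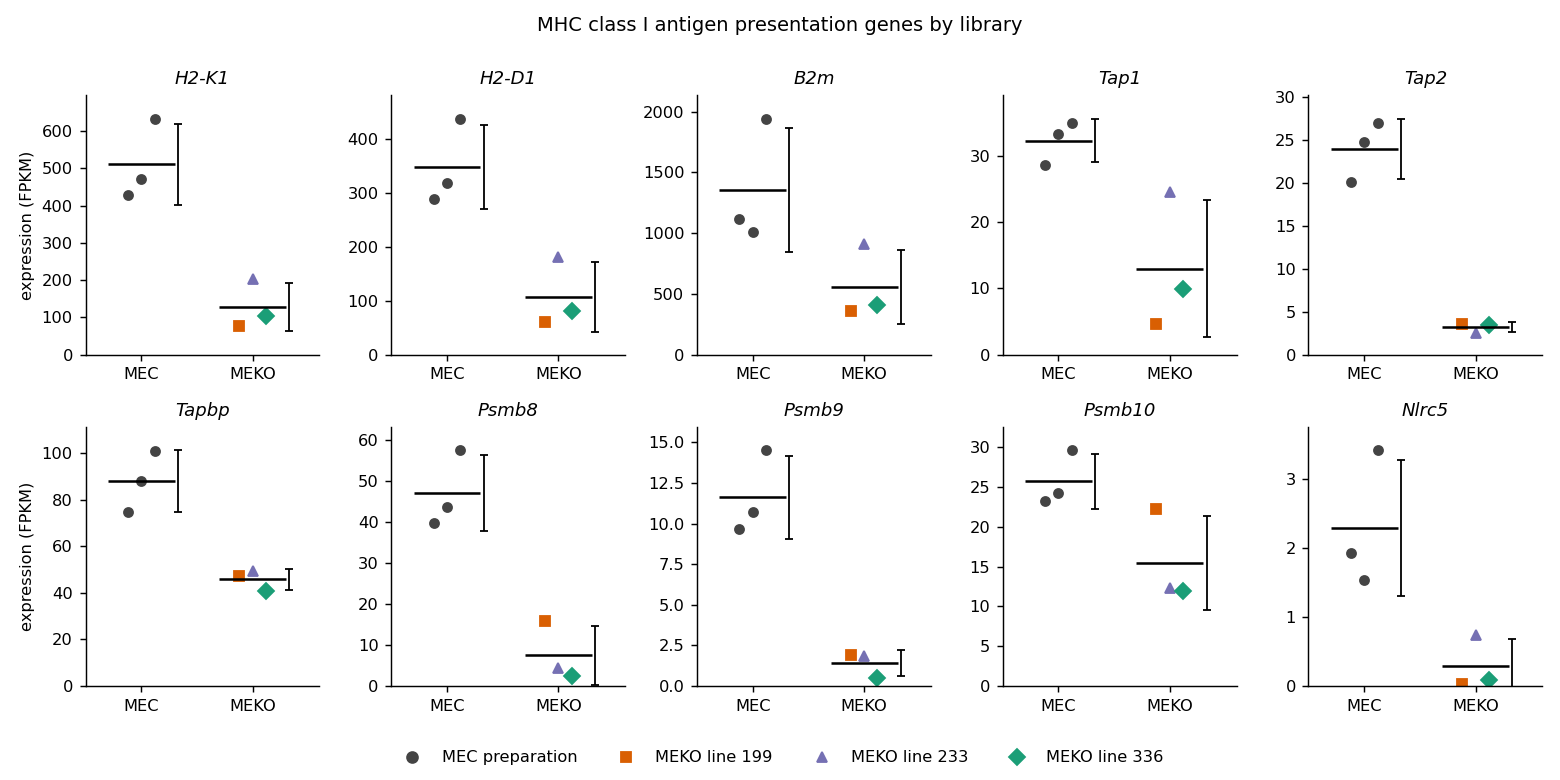
Expression (FPKM, linear axis from 0) of the 10 genes in each library, with the 3 MEC preparations as circles and MEKO lines 199, 233 and 336 as a square, a triangle and a diamond. Lines mark group means and bars the SD (n = 3), cut at 0 where they would run below it. Every MEKO point lies below every MEC point of the same gene.

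The count rests on single libraries. Without MEC 1, MEC 2, MEC 3 or line 336 it was 2 of the members, *Tap2* and *Psmb9*, while without line 233 it was 8. The share of all genes called lower moved as well, to 1.70% without MEC 1, 1.98% without MEC 2, 3.13% without MEC 3, 5.68% without line 336 and 6.27% without line 233. *Nlrc5* passed the filter on low values through MEC alone, and without it the count was 6 of 9.

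Markers of other cells also differed between the groups. The summed level of 16 leukocyte markers was 125 to 150.3 FPKM in MEC and 7.53 to 62.3 FPKM in MEKO. Of the 16, 11 were lower in every line than in every MEC library. Only 7 of the 16 had a mean of at least 1 FPKM, and 6 of these 7 were separated in this way. Among all genes at that level the share was 18.7%. Of the 7, however, 5 had a MEKO mean under 1 FPKM and passed the filter on low values through MEC alone. The share over all genes is therefore no measure for them. *Ptprc*, which defines leukocytes, had 0.190 to 0.399 FPKM in MEC and 0 to 0.0146 FPKM in MEKO, and *Tyrobp* had 3.11 to 3.85 FPKM in MEC and was listed at 0 in all lines. Of the 16, 6 were listed at 0 in all lines. *Lyz2*, a macrophage gene, had 16.5 to 32.9 FPKM in MEC and at most 0.0182 FPKM in MEKO. *Cd14* made up most of the sum in MEC, with 103, 113 and 64.7 FPKM there and 6.51, 8.5 and 37.3 FPKM in lines 199, 233 and 336. *Cd68* went the other way in line 336, at 23.5 FPKM against 3.46 to 6.59 FPKM in MEC, and these 2 genes made up most of the sum in that line. The summed level of 4 MHC class II markers was 4.23 to 5.24 FPKM in MEC and 0.0996 to 1.77 FPKM in MEKO. Of the 4, 3 were lower in every line than in every MEC library. *H2-Eb1* was the exception, at 0.183 to 0.575 FPKM in MEC and 0.743, 0.927 and 0.0813 FPKM in lines 199, 233 and 336. Of the class II markers only *Cd74* had a mean of at least 1 FPKM, and this through MEC alone. The share of 18.7% therefore does not cover the other 3. Endothelial markers (6 genes) summed to 2.45 to 22.5 FPKM in MEC and 0.210 to 2.06 FPKM in MEKO, and adipocyte markers (5 genes) to 1.48 to 11.7 and 0.0898 to 1.19 FPKM. The adipocyte sum in MEC was mostly *Fabp4*, at 7.74, 11.7 and 1.28 FPKM, while *Adipoq* and *Plin1* were listed at 0 in every MEC library. Of the 5 adipocyte markers, 1 was lower in every line than in every MEC library. Fibroblast markers (9 genes) summed to 118 to 209 FPKM in MEC, 2.42 and 4.23 FPKM in lines 233 and 336, and 1111 FPKM in line 199, mostly *Col1a1* and *Col1a2*. The part of these cells in the levels of the class I genes was not tested, and in bulk RNA fewer cells of a type and less RNA per cell cannot be told apart.

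Most of the members share a region of the genome. *H2-K1* (chromosome 17 of GRCm38, 33996017 to 34000347, minus strand) and *H2-D1* (35262730 to 35267499, plus strand) lie 1262 kb apart in the MHC. *Psmb9*, *Tap1*, *Psmb8* and *Tap2* are neighbours between them, from 34181987 to 34216321, and *Tapbp* lies at 33915899 to 33929292. *B2m* is on chromosome 2 (122147686 to 122153083), and *Nlrc5* (94434356 to 94527272) and *Psmb10* (105935735 to 105938444) are on chromosome 8. *Tap1* and *Psmb9* are transcribed away from each other from RefSeq starts 226 bases apart, and in GENCODE M21 their exons overlap by 212 bases on opposite strands. Whether the fragments were counted by strand is not given in the sources used here, so reads from such overlaps cannot be assigned to either gene.

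The promoters of 4 members are shown because class I genes are known for a compact upstream module, in which a κB site, an interferon-stimulated element and boxes for CREB/ATF and NF-Y factors follow each other. Each line is the 230 bases before a RefSeq start on GRCm38.p6, 5′ to 3′ along the gene. Capitals mark the letters of GAAA, any 2 bases, GAAA, or of GAANNGAAA (interferon element), of GGG, any 2 bases, TT, any base, CC (κB), of TGACG (CREB/ATF core) and of CCAAT, on either strand.
H2-K1: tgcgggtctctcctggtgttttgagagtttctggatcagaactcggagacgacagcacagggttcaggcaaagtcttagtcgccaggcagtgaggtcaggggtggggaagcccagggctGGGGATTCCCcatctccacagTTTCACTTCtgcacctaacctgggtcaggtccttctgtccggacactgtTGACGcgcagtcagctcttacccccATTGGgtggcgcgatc
H2-D1: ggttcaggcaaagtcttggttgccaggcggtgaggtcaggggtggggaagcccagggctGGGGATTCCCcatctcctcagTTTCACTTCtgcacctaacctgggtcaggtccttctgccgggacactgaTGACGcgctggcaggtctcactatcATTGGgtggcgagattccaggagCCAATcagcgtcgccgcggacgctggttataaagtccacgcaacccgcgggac
B2m: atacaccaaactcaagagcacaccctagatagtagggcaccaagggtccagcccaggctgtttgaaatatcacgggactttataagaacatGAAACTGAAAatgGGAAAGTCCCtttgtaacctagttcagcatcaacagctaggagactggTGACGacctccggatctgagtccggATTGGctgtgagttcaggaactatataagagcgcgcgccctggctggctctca
Tap1: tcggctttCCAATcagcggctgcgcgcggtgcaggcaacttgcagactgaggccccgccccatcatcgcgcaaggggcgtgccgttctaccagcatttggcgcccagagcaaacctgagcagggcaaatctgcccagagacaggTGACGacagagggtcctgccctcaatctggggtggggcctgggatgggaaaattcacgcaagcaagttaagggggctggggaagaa
The *H2-K1* stretch is chr17:34000348-34000577 (minus strand), that of *H2-D1* chr17:35262864-35263093, that of *B2m* chr2:122147457-122147686 and that of *Tap1* chr17:34187326-34187555.

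*H2-K1* and *H2-D1* hold the κB, interferon, CREB/ATF and CCAAT letters in the same order. In *B2m* the interferon letters stand before the κB letters, and *Tap1* has neither of them in this stretch. RefSeq windows from 250 bases before to 50 after the start were searched for the 8 members that have one, not for *Tap2* and *Nlrc5*. *H2-K1* has another window with a RefSeq start further downstream, and the stretch shown is that of the upstream start. GAAA, any 2 bases, GAAA was found in *B2m*, against 3.44% of all 32851 windows. GAAANNGAA, its looser form, was likewise found in *B2m* (8.56% of all windows). GAANNGAAA, searched after the windows had been read, was found in *H2-K1* and *H2-D1* (7.52%). The κB letters were in *H2-K1*, *H2-D1* and *B2m* (4.79%), and TGACG was in those 3 and in *Tap1* and *Psmb9* (20.8%). CCAAT was in the same 5 and in *Tapbp* (37.4%). The windows of *Tap1* and *Psmb9* overlap, and their TGACG and CCAAT matches are the same bases, counted for both genes. A match gives letters and not a binding site, and binding was not measured.

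The classical heavy chains fell, to 25.1% of the MEC mean for *H2-K1* and to 30.8% for *H2-D1*. *H2-K1* had 428, 471 and 633 FPKM in MEC and 77.0, 202 and 105 FPKM in lines 199, 233 and 336. Line 233 was the highest of the lines and still below the lowest MEC library. From 511 ± 108 FPKM in MEC the mean fell to 128 ± 65.9 FPKM in MEKO (SD, n = 3), a log2 fold change of -2.09 (limma adjusted p = 0.0205, standard error 0.37). *H2-D1* had 290.0, 319 and 438 FPKM in MEC and 59.9, 181 and 81.5 FPKM in the lines, in the same order. Its mean fell from 349 ± 78.6 to 107 ± 64.5 FPKM, a log2 fold change of -1.83 (limma adjusted p = 0.0419, standard error 0.41). The MEC and MEKO values of both genes were far apart in lines 199 and 336 and closer in line 233, which had 39.6% of the MEC mean of *H2-K1* and 51.8% of that of *H2-D1*. Their transcripts are 90.7% identical over the aligned length with a longest shared run of 91 bases, so a part of the reads of each may have been counted for the other. The calls of *H2-K1* and *H2-D1* were lost when any MEC library or line 336 was left out, and that of *H2-D1* also without line 199.

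*B2m*, which encodes the light chain of all class I molecules, was the most abundant member. It had 1115, 1011 and 1940 FPKM in MEC and 359.7, 908 and 406 FPKM in the lines. Line 233 came within a short distance of the lowest MEC library, and MEC 3 stood well above the others. The means were 1355 ± 509 and 558 ± 304 FPKM, a log2 fold change of -1.35 that did not pass (standard error 0.42, limma adjusted p = 0.0978). Without line 233 the limma adjusted p was 0.0352, and over all alternatives it was 0.0352 to 0.264. The ratio of *B2m* to *H2-K1* was 2.15 to 3.07 in MEC and 3.88 to 4.67 in the lines, so the light chain was the less reduced of the pair in each line.

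Both subunits of the TAP peptide transporter were lower, but with a different pattern over the lines. *Tap2* had 20.1, 24.7 and 27.0 FPKM in MEC and 3.60, 2.53 and 3.46 FPKM in lines 199, 233 and 336. All lines were alike and close to the bottom of the scale, at 10.6% to 15.0% of the MEC mean. *Tap2* fell from 23.9 ± 3.52 to 3.20 ± 0.578 FPKM (SD, n = 3), with a log2 fold change of -2.57 (limma adjusted p = 0.00167, standard error 0.19). Among the members this was the smallest adjusted p, and the call held under each of the 15 alternatives tried, with limma adjusted p values of 0.00107 to 0.0188. *Tap1* had 28.6, 33.3 and 34.9 FPKM in MEC, and its lines spread widely, at 4.59, 24.5 and 9.86 FPKM. Line 233 kept 75.9% of the MEC mean of *Tap1* and line 199 kept 14.2%. The log2 fold change of *Tap1* was -1.52 (standard error 0.52, limma adjusted p = 0.12), and without line 233 it was -2.09 with a limma adjusted p of 0.0234 (0.0234 to 0.292 over all alternatives). In line 233 the partners of the transporter were thus 24.5 FPKM for *Tap1* and 2.53 FPKM for *Tap2*. *Tap2* shares 533 and 165 exon bases with the opposite-strand genes *Gm15821* and *Gm20496*, and *Psmb8* shares 498 with the latter.

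*Tapbp* encodes tapasin, the chaperone that links class I molecules to the transporter. The joined entry with *Zbtb22* had 74.7, 88.2 and 101 FPKM in MEC and 47.1, 49.3 and 40.9 FPKM in the lines. The spread within each group was small, and all lines had about the same level. The mean fell from 88.1 ± 13.3 to 45.8 ± 4.35 FPKM, a log2 fold change of -0.92 (limma adjusted p = 0.0217, standard error 0.17). This was the smallest change among the members that were called, and the call was lost without MEC 1, MEC 2, MEC 3 or line 336. How much of the entry comes from *Zbtb22*, a zinc finger gene, was not tested, and *Gm19412* overlaps 904 exon bases of *Tapbp* on the opposite strand.

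The inducible proteasome subunits were lower to unequal extents. *Psmb8*, which encodes the chymotrypsin-like subunit LMP7, had 39.8, 43.7 and 57.4 FPKM in MEC and 15.8, 4.37 and 2.38 FPKM in the lines. Here line 199 was the highest and line 233 was low, the opposite of the heavy chains. *Psmb8* fell from 47.0 ± 9.22 to 7.51 ± 7.23 FPKM (SD, n = 3), with a log2 fold change of -2.82 (limma adjusted p = 0.031, standard error 0.57). Line 199 kept 33.6% of the MEC mean against 9.31% in line 233 and 5.07% in line 336. Its call was lost when any MEC library, line 233 or line 336 was left out. *Psmb9*, which encodes LMP2, had 9.65, 10.7 and 14.5 FPKM in MEC and 1.90, 1.86 and 0.515 FPKM in the lines. All lines were far below MEC, and line 336 was the lowest. *Psmb9* fell from 11.6 ± 2.57 to 1.43 ± 0.790 FPKM, a log2 fold change of -2.42 (limma adjusted p = 0.00887, standard error 0.32). The call of *Psmb9* held under each of the 15 alternatives, with limma adjusted p values of 0.00317 to 0.0498. *Psmb10*, which encodes MECL-1, had 23.3, 24.2 and 29.6 FPKM in MEC and 22.3, 12.3 and 11.9 FPKM in the lines. Line 199 lay just below the lowest MEC library, at 86.6% of the MEC mean, and lines 233 and 336 at 47.8% and 46.1% of it. The log2 fold change of *Psmb10* was -0.75 (standard error 0.27, limma adjusted p = 0.131), and without line 199 it was -1.02 with a limma adjusted p of 0.0136 (0.0136 to 0.324 over all alternatives).

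Each inducible subunit takes the place of a constitutive subunit in the proteasome, so the pairs were compared within libraries. *Psmb8* was at 28.5%, 29.7% and 41.9% of the FPKM of *Psmb5* in MEC and at 16.2%, 2.88% and 2.24% in lines 199, 233 and 336. *Psmb9* was at 5.71%, 6.03% and 9.11% of *Psmb6* in MEC and at 1.30%, 1.23% and 0.361% in the lines. *Psmb10* was at 11.8%, 11.9% and 16.7% of *Psmb7* in MEC and at 8.91%, 6.46% and 4.99% in the lines. All 3 ratios were lower in every line than in every MEC library. The mean log2 ratios differed by -2.80, -3.03 and -1.01, or 6.98-fold, 8.15-fold and 2.02-fold (exact permutation test, two-sided, p = 0.1 each and 0.1 after adjustment over the 3 pairs, the smallest p possible). *Psmb5*, *Psmb6* and *Psmb7* themselves had log2 fold changes of -0.28, -0.20 and 0.22, and none of the 3 passed in limma, nor at an unadjusted p under 0.05.

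**Figure D2:**
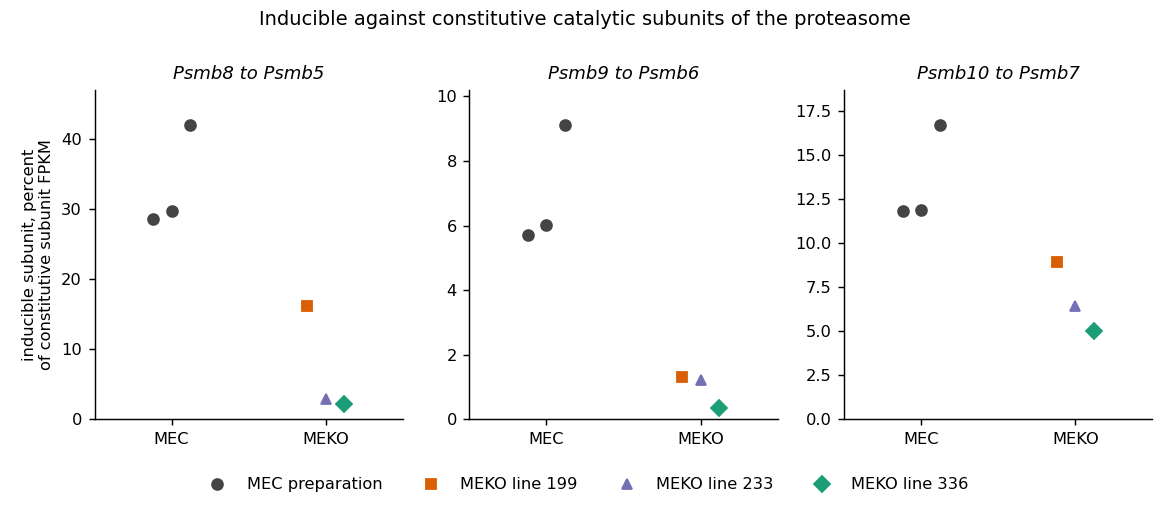
Ratio of each inducible proteasome subunit to the constitutive subunit it replaces, in percent of FPKM, by library (circles, MEC; square, triangle and diamond, MEKO lines 199, 233 and 336). All 3 ratios are lower in every line than in every MEC library, and line 199 is the highest line in each.

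*Nlrc5* was the least expressed member. It had 1.92, 1.54 and 3.41 FPKM in MEC and 0.0356, 0.738 and 0.0817 FPKM in lines 199, 233 and 336. Line 233 kept 32.2% of the MEC mean, whereas lines 199 and 336 kept 1.56% and 3.57%. The means were 2.29 ± 0.987 and 0.285 ± 0.393 FPKM, a log2 fold change of -1.36 (standard error 0.34) that did not pass (limma adjusted p = 0.0559). At such levels the pseudocount sets the size, and with a pseudocount of 0.1 the log2 fold change was -3.05 (limma adjusted p = 0.0735). Without line 233 it was -1.60, with a limma adjusted p of 0.0489 (0.0421 to 0.174 over all alternatives).

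The lines differed in which members were lowest. Against the MEC mean, 9 members in line 199, 8 in line 233 and 10 in line 336 were lower by more than 0.75 on the log2 scale and below each MEC library. Over all tested genes these shares were 16.9%, 17.5% and 18.2%. The exceptions were *Psmb10* in line 199 and *B2m* and *Tap1* in line 233. The median log2 ratio of the members to the MEC mean was -1.98, -0.96 and -1.86 in the lines in that order. Line 233 was the highest line for 6 members, *H2-K1*, *H2-D1*, *B2m*, *Tap1*, *Tapbp* and *Nlrc5*. Line 199 was the highest for the other 4, *Tap2* and the immunoproteasome genes, and line 336 for none of the 10. A line is represented by 1 library, so these differences between lines have no replicate check. The study found both adenocarcinoma and adenosquamous carcinoma in MEKO mice, and the part of tumor type in these differences was not tested.

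**Figure D3:**
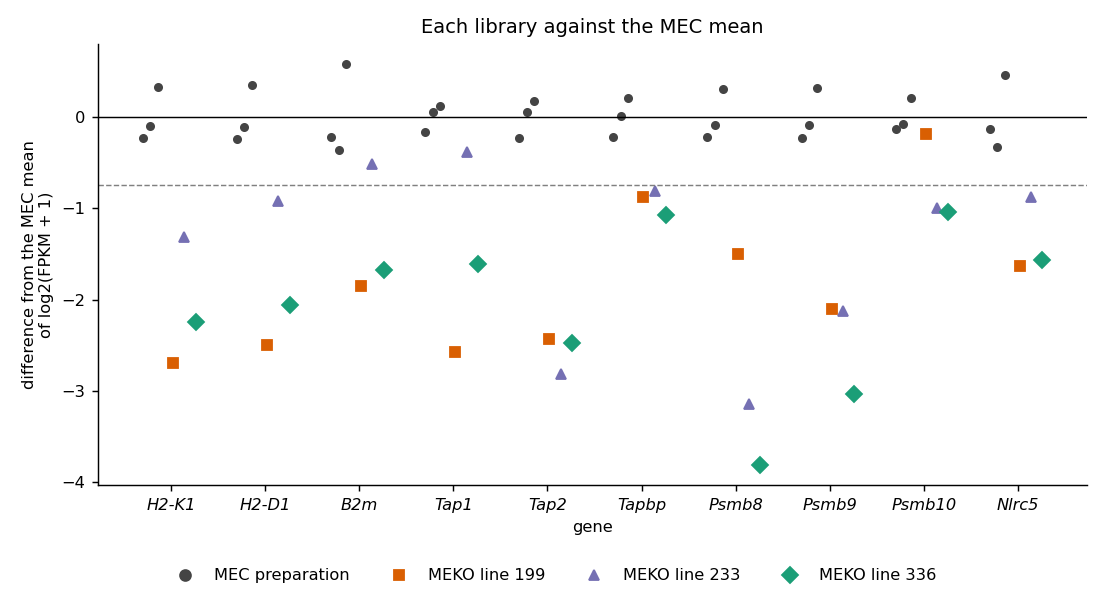
Difference of log2(FPKM + 1) from the MEC mean for the 10 genes in each library, where 0 is the MEC mean and the dashed line marks -0.75. Line 233 (triangles) is nearest to MEC for the heavy chains, *B2m* and *Tap1* but not for *Tap2* and *Psmb8*, where line 199 (squares) is nearer.

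Other genes of class I presentation were read from 7 lists with 88 genes, of which 86 had an entry and 76 were tested. *H2-T9* and *Irf8* were not analysed here. Of the 76, 11 (14.5%) were lower in limma, against 7.26% of all tested genes, and none was higher, against 2.64%. At an unadjusted p under 0.05 the numbers were 21 and 4, with 15.7% lower and 12.4% higher among all tested genes. Without MEC 1 or MEC 2 the lower genes were 4, without MEC 3 they were 5, without line 336 they were 7 and without line 199 they were 17. The shares of all tested genes called lower in these fits were 1.70%, 1.98%, 3.13%, 5.68% and 11.2%, in that order. Of the 11, 8 were among the 14 tested genes of the list of other class I heavy chains, which had a median log2 fold change of -1.53. *H2-Q2*, *Cd1d1* and *Hfe* among these 8 passed the filter on low values through MEC alone, with a MEKO mean under 1 FPKM. Of the 9 heavy chains with a MEKO mean of at least 1 FPKM 5 were lower, against 4.46% of all such genes.

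The *H2-Q* heavy chains, nonclassical class I genes of the Qa-2 region, had larger log2 fold changes than *H2-K1* and *H2-D1*, a difference that was not tested. *H2-Q7* had 25.4, 22.7 and 24.5 FPKM in MEC and 0.347, 4.06 and 0.227 FPKM in lines 199, 233 and 336, a log2 fold change of -3.63 (limma adjusted p = 0.0132). Line 233 again held most of what remained, at 16.8% of the MEC mean. *H2-Q6* went from 18.7 ± 2.36 to 1.22 ± 1.34 FPKM, *H2-Q4* from 58.8 ± 7.90 to 8.46 ± 7.53 FPKM and *H2-Q2* from 11.4 ± 1.41 to 0.462 ± 0.768 FPKM. Their log2 fold changes were -3.31, -2.93 and -3.20. The transcripts of *H2-Q6* and *H2-Q7* share a run of 265 identical bases, longer than a read, so the division between them is uncertain. *Cd1d1*, which presents lipids to NKT cells, fell from 7.81 ± 4.11 to 0.398 ± 0.262 FPKM (log2 fold change -2.58, limma adjusted p = 0.0108). *Mr1*, which presents vitamin B metabolites to MAIT cells, fell from 7.98 ± 4.14 to 1.62 ± 0.751 FPKM (log2 fold change -1.73, limma adjusted p = 0.0419). *H2-T22*, *Hfe* and *H2-T23* are named after their values were seen. *H2-T22* and *Hfe* were also lower, by log2 fold changes of -1.33 and -1.27. *H2-T23*, which encodes the Qa-1 molecule recognized by NK cell receptors, had 60.2, 55.2 and 109 FPKM in MEC and 20.5, 73.3 and 28.0 FPKM in the lines. Line 233 was inside the range of MEC for *H2-T23* (limma adjusted p = 0.244).

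For peptide trimming and loading outside the members the median was near 0. Of 14 tested genes 1 (7.14%) was called lower, against 7.26% of all tested genes. This was *Tapbpl*, which encodes the tapasin relative TAPBPR, at 13.9 ± 1.30 FPKM in MEC and 6.07 ± 1.49 FPKM in MEKO (log2 fold change -1.09, limma adjusted p = 0.026). The median log2 fold change of the list was 0.07. *Erap1*, the aminopeptidase that trims peptides in the endoplasmic reticulum, had 18.1 ± 2.12 and 12.2 ± 5.59 FPKM (limma adjusted p = 0.245), with line 199 at 18.5 FPKM inside the range of MEC. The log2 fold changes of the general chaperones *Calr*, *Canx* and *Pdia3*, named after their values were seen, were -0.17, 0.19 and 0.06. The cytosolic peptidase genes *Thop1*, *Npepps*, *Lap3* and *Tpp2*, also named after their values were seen, were above each MEC library in every line. They were picked for this direction, and *Blmh*, another cytosolic peptidase on the list, had 36.8, 31.3 and 31.6 FPKM in MEC and 41.2, 25.1 and 27.3 FPKM in the lines. None of the 4 genes above MEC passed, with log2 fold changes of 0.79, 0.64, 0.50 and 0.37 and limma adjusted p values from 0.072 to 0.177. These are the 4 higher genes at an unadjusted limma p under 0.05, a measure by which 12.4% of all tested genes were higher. The share of all tested genes above MEC in every line was not computed.

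The PA28 activator opens the proteasome and is encoded by *Psme1* and *Psme2*. *Psme2* had 105, 121 and 129 FPKM in MEC and 47.0, 63.7 and 40.8 FPKM in the lines, a log2 fold change of -1.23 (limma adjusted p = 0.0164). *Psme1* had 135, 132 and 202 FPKM in MEC and 60.8, 103 and 72.8 FPKM in the lines, without passing (log2 fold change -0.98, limma adjusted p = 0.063). In both genes every line was below every MEC library. *Psme3*, the gene of the nuclear activator PA28γ, and *Psme4*, named after their values were seen, had log2 fold changes of 0.26 and -0.45. The 11 other core subunits of the proteasome had log2 fold changes of -0.40 to 0.10. The largest by size were those of *Psma1* (-0.40) and *Psmb4* (-0.23). None of the 11 was called by limma, and 1, *Psma1*, was lower at an unadjusted p under 0.05, against 15.7% of all tested genes.

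**Figure D4:**
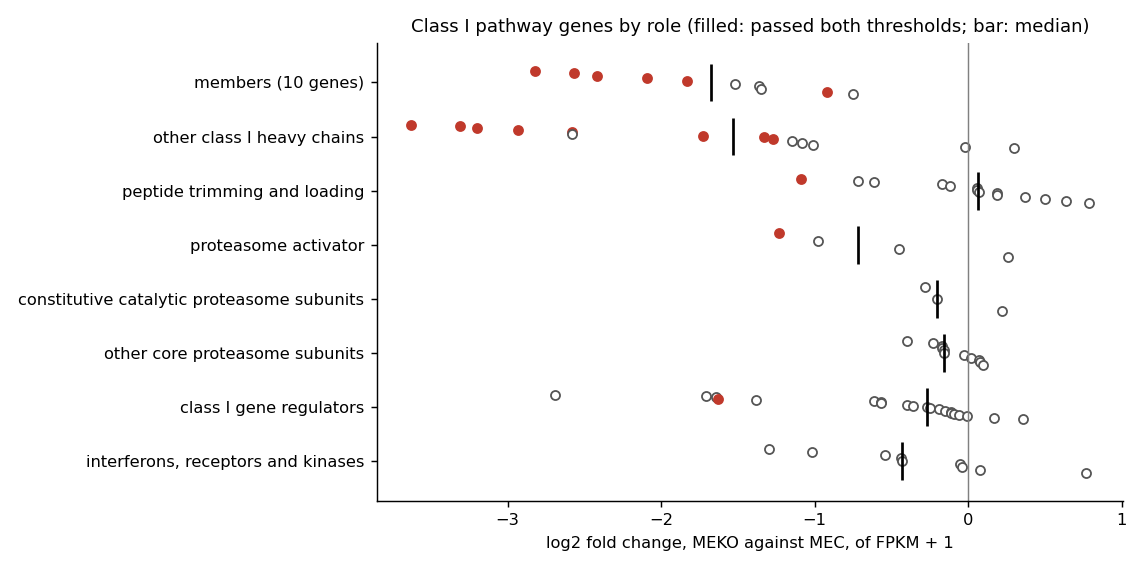
The log2 fold change (MEKO against MEC, FPKM + 1) of each tested gene, by role in the class I pathway, with filled points for genes past both thresholds and a bar for the median of each list. The called genes lie among the members and the other heavy chains, with single ones in trimming and loading (*Tapbpl*), the activator (*Psme2*) and the regulators (*Stat3*), while the core proteasome subunits lie around 0.

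Among 21 tested regulators of class I genes 1 (4.76%) was called lower, against 7.26% of all tested genes. This was *Stat3*, which encodes a transcription factor of cytokine signaling. *Stat3* had 69.4, 66.7 and 75.9 FPKM in MEC and 26.5, 22.9 and 17.9 FPKM in the lines (log2 fold change -1.63, limma adjusted p = 0.00457). All lines were alike and well below MEC. *Irf1*, which binds interferon elements, had 24.4, 25.8 and 29.5 FPKM in MEC and 33.5, 12.2 and 18.9 FPKM in the lines. Line 199 was above MEC and lines 233 and 336 below it (limma adjusted p = 0.484). *Rfx5*, a subunit of the complex on class I promoters with which NLRC5 acts, had 7.83 ± 1.81 and 4.94 ± 0.968 FPKM, and every line was below every MEC library (log2 fold change -0.57, limma adjusted p = 0.167).

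*Irf7*, *Irf9* and *Stat2*, factors of the type I interferon response, are named after their values were seen. *Irf7*, itself induced by interferon, had 76.6, 85.8 and 131 FPKM in MEC and 1.94, 104 and 9.73 FPKM in the lines. *Irf9*, in an entry joined with *Rnf31*, had 22.1, 20.8 and 27.6 FPKM in MEC and 3.69, 25.3 and 5.57 FPKM in the lines. *Stat2* had 18.7, 17.3 and 31.0 FPKM in MEC and 2.90, 12.1 and 5.52 FPKM in the lines. Line 233 was at the level of MEC for *Irf7* and *Irf9* and below it for *Stat2*, and lines 199 and 336 were low for all 3. The limma adjusted p values were 0.207, 0.206 and 0.0684.

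**Figure D5:**
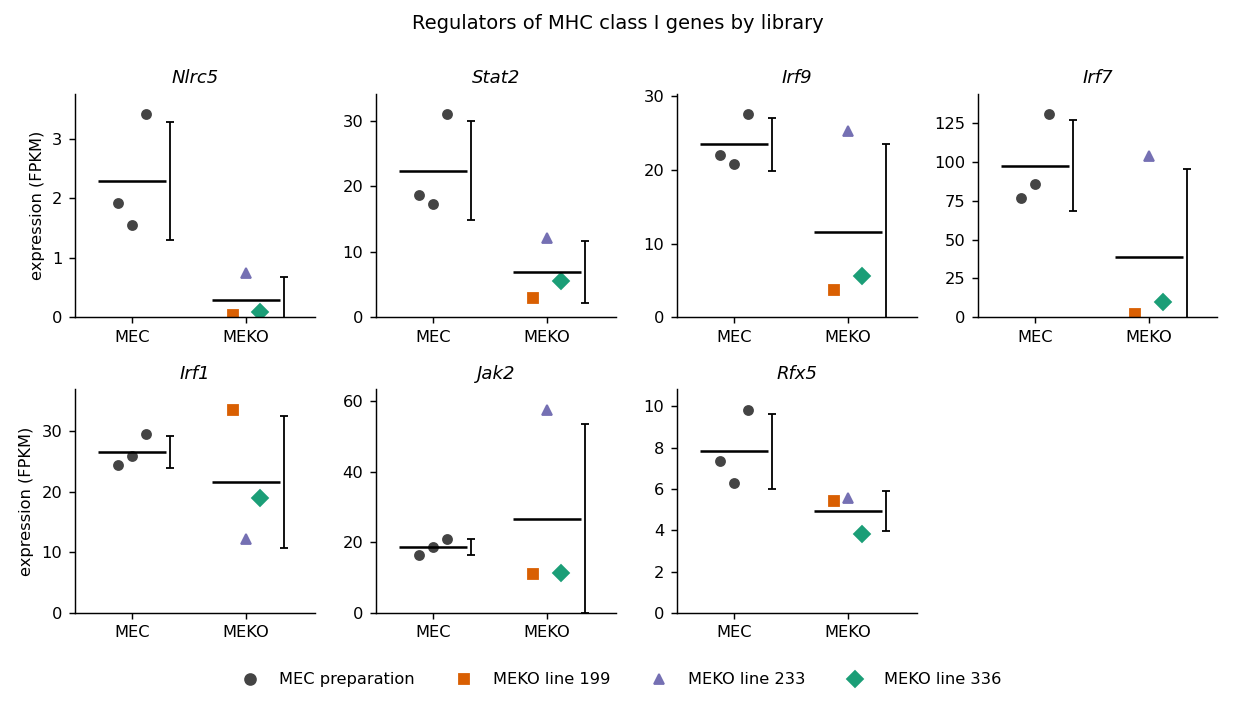
Expression (FPKM, linear axes from 0) of *Nlrc5* and 6 genes of interferon signaling and class I promoters by library, with group means and SD bars (n = 3) cut at 0 where they would run below it. Line 233 (triangle) lies inside the range of MEC for *Irf9* and *Irf7* and above it for *Jak2*, while lines 199 and 336 lie low for *Nlrc5*, *Stat2*, *Irf9* and *Irf7*.

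Of the 11 interferon, receptor and kinase genes 9 were tested, and none was called by limma. At an unadjusted limma p under 0.05, 3 of the 9 were lower and none was higher. Among all tested genes 15.7% were lower and 12.4% higher by that measure. The genes with the largest change were *Socs3*, a feedback inhibitor of cytokine signaling, at 13.5 ± 3.49 and 5.79 ± 4.86 FPKM, and *Ifngr2*, a chain of the interferon-γ receptor, at 28.0 ± 5.10 and 14.3 ± 7.90 FPKM. Their log2 fold changes were -1.30 and -1.02 (limma adjusted p = 0.153 and 0.125). *Ifng* and *Jak2* are named after their values were seen. *Ifng* was listed at 0 in all 6 libraries. *Jak2*, a kinase of that receptor, had 16.4, 18.5 and 20.9 FPKM in MEC, 11.0 and 11.4 FPKM in lines 199 and 336, and 57.5 FPKM in line 233, which is 309.7% of the MEC mean.

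The genes that lie between *H2-K1* and *H2-D1* but on none of the pathway lists had a median near 0. Of 83 protein-coding genes in this interval 41 were tested, and their median log2 fold change was 0.00 against -1.68 for the members. The medians in lines 199, 233 and 336 were -0.07, -0.22 and 0.09. In limma 7 of the 41 (17.1%) were lower, against 7.26% of all tested genes, and none was higher, against 2.64%. At an unadjusted limma p under 0.05, 10 were lower and 3 higher, against 15.7% and 12.4% of all tested genes. All 7 had a MEKO mean under 1 FPKM and passed the filter on low values through MEC alone. The 7 are named after their values were seen: *H2-DMb1*, *Notch4*, *Slc44a4*, *Ly6g6e*, the joined entry of *C2*, *Cfb* and *Gm20547*, *Ly6g6d* and *Tnf*. None of these had more than 10 FPKM in any library.

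The genes with the pattern most like that of the members over the 6 libraries were *Pde5a*, *Mcfd2*, *Cdc14a*, *Zbp1* and *Bend7*. Pearson's r to the mean z score of the members was 0.9925 to 0.9972, the highest of 12346 genes compared. These values are a description over 6 libraries that share the division into MEC and MEKO. *Zbp1*, an interferon-induced sensor of nucleic acids, had 48.3, 52.2 and 99.0 FPKM in MEC and 3.77, 4.97 and 1.20 FPKM in the lines, all far below MEC. *Pde5a*, a cyclic GMP phosphodiesterase, had 4.23, 3.86 and 6.12 FPKM in MEC and 0.309, 0.905 and 0.176 FPKM in the lines. *Mcfd2*, whose product helps to carry glycoproteins out of the endoplasmic reticulum, differed less, with 67.2, 68.2 and 72.9 FPKM in MEC and 53.3, 54.9 and 51.7 FPKM in the lines.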

How the data were processed

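RNA from 3 MEC preparations and 3 MEKO tumor cell lines was sequenced as paired ends, 1 library each. The authors trimmed the reads with Trimmomatic, aligned them to the mouse genome mm10 (GRCm38) with Bowtie2 and TopHat2 2.0.14, and quantified genes with Cufflinks 2.2.1. The deposited table holds FPKM values made by the authors, normalized for transcript length and library size, for 37755 entries, 2 of them without values. The gene annotation used for counting and the strandedness are not given in the sources used here. Cuffdiff, which the authors used to compare groups, needs reads and was not run here.

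Groups were taken from the sample titles. The 12461 genes whose mean FPKM reached 1 were tested as log2(FPKM + 1) with limma 3.58.1 in R 4.3.3, MEKO against MEC, with Benjamini-Hochberg adjustment over all of them and a trend of the variance with the mean. Calls needed an adjusted p under 0.05 and a log2 fold change beyond 0.75, the thresholds of the study's methods. Single values and ratios were compared by an exact permutation test (two-sided). Lines were compared with MEC as values, without a test. The code was tested on simulated data with known changes.

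The members and all gene lists were chosen with earlier results of these data known. All 10 members are named. From each other pathway list the text names the called genes (the 6 largest changes where more were called, or the 2 largest where none was) and *Psmb5*, *Psmb6*, *Psmb7*, *Psme1*, *Psme2*, *Irf1*, *Rfx5* and *Erap1*. It also names the 5 tested genes outside the lists with the highest Pearson's r to the mean z score of the members, the targeted genes and markers of other cells. Further names were chosen with their values in view, and the text says so. Positions are from GENCODE M21 and promoters from RefSeq, both on GRCm38. Alternatives were a pseudocount of 0.1, no filter, a filter at 5 FPKM, quantile normalization, upper-quartile scaling, no trend, sample weights, no fold threshold, summed entries, and each library left out. Some further items are not reported here.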

Additional observations from a re-analysis of the deposited data

How the results depend on the processing

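Over all genes limma called 1234. The number was 738 with a filter at a mean of 5 FPKM, where fewer genes were tested, and 1978 with sample weights, and it ranged from 259 to 1966 with a library left out. Of the members 6 were lower, and this ranged from 2 to 8 with a library left out and from 4 to 7 otherwise. Of the genes on the wider lists 11 were lower, which ranged from 4 to 17 with a library left out, and 1 was higher without line 336. The share of all tested genes called lower ranged from 1.70% to 11.2% with a library left out. The cause of these shifts was not tested, beyond the smaller number of libraries in a fit. No log2 fold change of a member and no subunit ratio changed its direction. *Tap2* and *Psmb9* kept their calls under all 15 alternatives, while *H2-K1* lost its call in 4, *Tapbp* in 5, *Psmb8* in 6 and *H2-D1* in 7. *B2m* and *Tap1* passed without line 233 only. *Psmb10* passed without line 199 and with sample weights, and *Nlrc5* without line 233 and with no mean-variance trend. Members below MEC in line 233 numbered 7 rather than 8 with quantile normalization. No paired analysis was possible because the groups share no replicate numbers. The unknown depth limits genes near 0, such as *Nlrc5*, and the pooled preparations and single tumors limit what the spread within each group can stand for.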
